A study of Mus musculus with 27 samples.

Results

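The mRNAs of the cytosolic ribosomal proteins were followed in bone marrow-derived macrophages, together with the paralogs that carry their names. Members were the genes named Rpl, Rps or Rplp with a number (and Rpsa) whose mean was at least 1 CPM (a library's count divided by its total and TMM factor, times 1000000) over the 24 libraries of batch 1. Of 50559 genes in the deposited table, 88 had such a name and 84 were members. They comprised 45 proteins of the large subunit, 31 of the small subunit (76 canonical members in all) and 8 paralogs, namely Rpl39l, Rpl22l1, Rps27l, Rpl7l1, Rpl36al, Rps4l, Rpl6l and Rpl32l. Just inside the threshold was Rpl39l with a mean of 1.23 CPM, and just outside were Rps12l1 with 0.444 CPM, Rpl3l with 0.293 CPM, Rpl10l with 0.0108 CPM and Rpl28 with 0.00527 CPM. Rpl28 is a canonical protein of the large subunit, so its near absence concerns what was counted on that gene name and says nothing of the protein. All 84 members were among the 13614 genes that passed the filter on low counts, and the canonical list fixed for the cytosolic ribosome held 77 genes.

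Cells came from age-matched female C57BL/6 mice of 3 to 4 months, either wild-type (WT) or lacking TRAP1, a mitochondrial chaperone of the HSP90 family. Marrow was differentiated in culture into unpolarized macrophages (M0), and a further 24 h with 10 ng/ml of IL-4 gave M2 macrophages. Both were then kept for 48 h in control DMEM or in DMEM conditioned by cells of a malignant peripheral nerve sheath tumor (MPNST-CM, written CM below). All groups shared the strain and the differentiation, the knockout (KO) was that of the donor mice rather than one made in culture, and no label says whether replicates came from separate animals, so p-values measure the spread between libraries, which may be technical. The 8 groups crossed cell type, medium and genotype, with 3 libraries each in batch 1 and 1 further library in batch 2 for WT M0 in control medium, KO M2 in control medium and KO M2 in CM.

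A cytosolic ribosome holds 1 copy of nearly every ribosomal protein, arranged with ribosomal RNA in a small subunit that reads the mRNA and a large subunit that joins amino acids. The mRNAs of these proteins are abundant and belong to the TOP class, whose transcripts start with a C followed by a run of pyrimidines and whose translation responds to growth signals such as mTOR. A few genes have paralogs, some of which encode proteins that take the place of the canonical one in certain tissues, while others are retrocopies or pseudogenes.

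The transcript starts of some members named in the results are shown for that reason, with canonical members that have such a start and others that do not. Each line gives 20 bases before and 10 bases from the annotated start in RefSeq (GRCm38.p6), on the transcribed strand, and the unbroken run of pyrimidines beginning at the annotated start is in capitals.
Rps27 (chr3:90213639-90213668, minus strand): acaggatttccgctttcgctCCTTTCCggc
Rpl15 (chr14:18270977-18271006, minus strand): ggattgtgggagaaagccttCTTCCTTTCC
Rpl39 (chrX:37085213-37085242, minus strand): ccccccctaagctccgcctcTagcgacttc
Rps15 (chr10:80292411-80292440, plus strand): gccctcccggcagagctcgcgataactgcg
Rpl24 (chr16:55966255-55966284, plus strand): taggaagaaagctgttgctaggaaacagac
Rplp0 (chr5:115559447-115559476, plus strand): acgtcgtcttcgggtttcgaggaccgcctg
Rpl39l (chr16:10170208-10170237, plus strand): cctagctcccaggcctttccggatttccgg
Rpl22l1 (chr3:28805488-28805517, plus strand): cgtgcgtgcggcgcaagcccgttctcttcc
The annotated starts of Rps27 and Rpl15 are a C with pyrimidines behind it, and that of Rpl39 is a single T. Those of Rps15, Rpl24 and Rplp0 are a G, as are those of the paralogs Rpl39l and Rpl22l1. Of 10 canonical members looked up among the named genes, 7 start with a G. A C with at least 4 pyrimidines after it stood at the start of 12 of the 56 canonical members with an entry (21.4%), of 1 of 6 paralogs (16.7%) and of 813 of 27025 genes in the table (3.01%). These are the annotated starts, which can lie some bases from the start used in these cells.

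Reads counted per library ranged from 7037684 to 11152362, and 3 counts in a library were taken as the limit of detection, for counting error only. The targeted gene Trap1 was read in all 13 WT libraries (10.4 to 20.7 CPM) and in 1 of 14 KO libraries, KO M2 control replicate 4, which had 2 counts. The libraries of the first batch differed by genotype in Xist, the RNA that silences an X chromosome, with at least 268 CPM in 12 WT libraries and at most 1.14 CPM in 12 KO libraries. Xist in the 2 KO libraries of the second batch was far above that, at 404 CPM for M2 control replicate 4 and 308 CPM for M2 CM replicate 4. A set of 4 Y-linked genes summed to at most 2 counts in any library. Across genes, KO M2 control replicate 4 was closest to KO M0 in CM (Spearman's rho 0.970, against 0.914 with its labelled group), and KO M2 CM replicate 4 was closest to WT M2 in control medium (0.983, against 0.949). Within batch 1, replicate 1 differed from replicates 2 and 3 in the 4 M0 groups and in WT M2 in CM by a chi-square of 16.04 to 37.4 per degree of freedom over genes, against 2.11 to 3.42 between replicates 2 and 3. In KO M2 control, replicate 2 was the one apart from replicates 1 and 3 (10.8 and 13.1, against 4.26 between those). Because of the batch 2 libraries the values below come from the 24 libraries of batch 1, and those of 27 libraries are given beside them. Macrophage markers (8 genes) summed to between 8379 and 12859 CPM, and markers of other cells were low, with at most 20.6 CPM for 9 neutrophil genes, 19.7 for 5 dendritic cell genes, 12.6 for 9 genes of fibroblasts and Schwann or tumor cells, 7.20 for 8 genes of B and T cells, 4.40 for 5 of mast cells and basophils and 1.10 for 6 of erythroid cells (Hba-a1, Hba-a2, Cd79a and Mcpt4 were at 0). The sum of 6 genes induced by IL-4 was 685 to 757 CPM in M0 control, 1172 to 1350 in WT M0 in CM, 2555 to 2674 in KO M0 in CM and 2712 to 4659 in the M2 libraries of batch 1. Their part in the results was not tested.

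Ribosomal protein genes took between 3.44% and 5.34% of a library's counts. The share was highest in KO M0 in CM, at 5.19% ± 0.25 (SD, n = 3), followed by 5.07% ± 0.25 in WT M0 control, 4.92% ± 0.34 in KO M0 control and 4.73% ± 0.05 in WT M0 in CM. In M2 cells it was 4.11% ± 0.04 in WT control, 4.11% ± 0.12 in KO in CM, 3.78% ± 0.28 in WT in CM and 3.62% ± 0.22 in KO control. The M0 and M2 libraries of batch 1 did not overlap, whereas neighbours in this order within M0 overlapped. Within M2, WT control overlapped with KO in CM, and WT in CM with KO control, and the former pair lay above the latter. Averaged over genotypes and media, M0 libraries had 1.07 percentage points more than M2 libraries. A two-sided exact permutation test that exchanged libraries within genotype and medium, added after the values were seen, gave p = 1.25e-05, the smallest its 160000 arrangements allow (0.894 points and p = 4.31e-05 over 27 libraries). As the batch 1 libraries were already known not to overlap, no other p was possible there, and it adds nothing to that observation. The test also treats libraries as independent, which no label states. Pairs of groups were not tested. In batch 2 the shares were 4.32% for WT M0 control, 5.22% for the library labelled KO M2 control and 4.64% for that labelled KO M2 in CM. With the latter the mean of KO M2 control became 4.02% and that of KO M2 in CM 4.24%. Rows named as pseudogenes of members (316) added only 0.0851% to 0.139% of a library. The 13 mitochondrially encoded genes took the smallest share in KO M0 in CM, at 2.31% ± 0.12, where the share on members was highest, and the largest in KO M2 control, at 5.61% ± 0.43, where it was lowest. Their group means lay between 2.93% and 3.34% in the other M0 groups and between 3.14% and 4.85% in the other M2 groups, and their part in the results was not tested. In bulk samples, fewer cells of a type and less RNA per cell cannot be told apart.

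**Figure D1:**
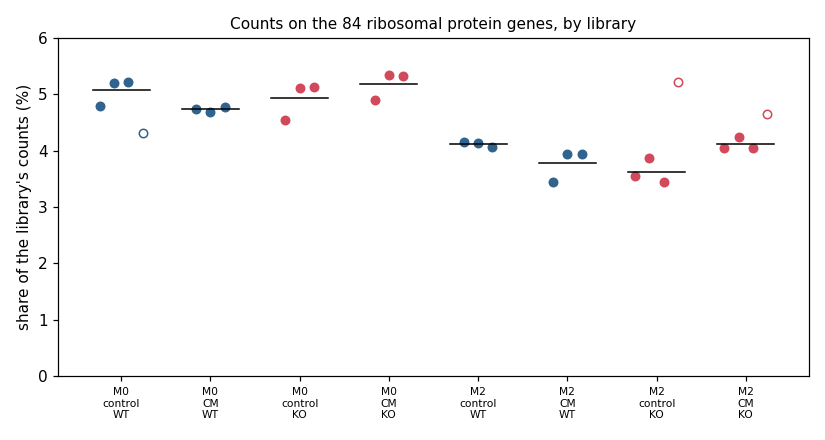
Share of each library's counts (%) on the 84 ribosomal protein genes, by group. Filled points are batch 1, open points batch 2, blue WT and red KO, and each bar is the mean of the 3 batch 1 libraries. The M0 libraries of batch 1 lie between 4.53% and 5.34%, and the M2 libraries between 3.44% and 4.25%.

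Medium conditioned by MPNST cells lowered ribosomal protein mRNAs in WT M2 macrophages. Of 76 canonical members, 46 fell and none rose, among them 27 of 45 of the large subunit and 19 of 31 of the small, with a median log2 fold change of -0.33 (all genes tested: -0.03). In this comparison 13.3% of all genes tested were lower and 11.2% higher (by the quasi-likelihood test of edgeR at a Benjamini-Hochberg adjusted p below 0.05, as for every call here). Abundant genes were called more often, and of 614 genes that are no members and have a mean of at least 248 CPM, the lower quartile of canonical members, 33.9% were lower and 14% higher.

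Rps27, a zinc-finger protein of the small subunit, had 394, 416 and 430.2 CPM in WT M2 control and 222, 263 and 263 CPM in CM. All libraries in CM lay below all control libraries, with a log2 fold change of -0.73 ± 0.08 (SE, adjusted p = 8.07e-08). Rps15, a protein of the head of the small subunit, had 405, 368 and 363 CPM in control medium and 229, 243 and 216 CPM in CM. The groups did not overlap, and the log2 fold change was -0.73 ± 0.12 (adjusted p = 3.58e-05). Rpl36, of the large subunit, had 220.2, 240.4 and 228 CPM in control medium and 134, 157 and 129 CPM in CM, again without overlap (log2 fold change -0.71 ± 0.12, adjusted p = 5.61e-05). Canonical genes named by the size of their change, here and below, had to be free of overlap, so its absence is no further evidence. Of all 76 canonical members, 64 lay lower in CM without overlap and 0 higher (21.6% and 17.7% of all genes).

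The count of members that fell depended on single libraries. Among WT M2 libraries replicate 1 was present in CM only, as those in control medium were replicates 2, 3 and 4. It differed from CM replicates 2 and 3 by a chi-square of 37.4 and 33.6 per degree of freedom, against 2.57 between those. The part of this imbalance in the comparison was not tested. Without WT M2 CM replicate 1, which had the lowest share of counts on members in its group (3.45%, against 3.94% in both others), 24 canonical members fell, with a median of -0.22. Without WT M2 control replicate 2, 3 or 4 the counts were 26, 28 and 29. Over all 27 libraries 16 fell and none rose, with a median of -0.27, and 7.44% of all genes were called. Rps27, Rps15 and Rpl36 passed there too (adjusted p = 0.00371, 0.0115 and 0.0080). Scaling by library size alone gave 24 lower and none higher (median -0.18), beside a median of all genes of 0.12.

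In WT M0 macrophages the same medium moved few members in the main fit, which has no term for the replicate number. Of 76 canonical members 7 fell (9.21%) and none rose (median -0.10), which lies near the 9.96% of all genes that were lower, while 11.3% were higher (19.1% and 21.3% of the abundant genes). Rps23, a protein of the decoding centre, had 246, 257 and 257 CPM in control medium and 171, 194 and 224 CPM in CM (-0.37 ± 0.12, adjusted p = 0.0263). Rps27a, made as a fusion with ubiquitin, had 363, 407 and 382 CPM in control medium and 302, 298 and 298 CPM in CM (-0.36 ± 0.10, adjusted p = 0.00810), and Rpl39, which lines the exit tunnel, fell by 0.34 on the log2 scale (SE 0.11, adjusted p = 0.0249). The libraries in CM lay below the control libraries for all 3 genes, which the rule for naming them required. Of all 76 canonical members, 20 lay lower in CM without overlap and 1 higher (16.2% and 17.1% of all genes). Rps23 missed the threshold without WT M0 CM replicate 1 or 2 or control replicate 2 or 3 (adjusted p = 0.132, 0.0698, 0.0717 and 0.0730), and Rpl39 without CM replicate 1 or control replicate 2 or 3 (adjusted p = 0.170, 0.116 and 0.0887). Only 1 canonical member fell without WT M0 control replicate 2 or without replicate 3, 3 fell and 1 rose without WT M0 CM replicate 2, and none passed in the 27 libraries, where 7.04% of all genes did. With TMM factors from genes other than members 3 fell. The count went up with the replicate number as a block, where 14 fell and none rose (median -0.10), with no share of all genes to set beside it.

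In KO cells CM moved ribosomal protein mRNAs in both directions. In KO M0, 4 canonical members rose and 3 fell (median 0.03), against 14.8% and 18.1% of all genes. In KO M2, 9 rose and 6 fell (median 0.08), against 16.7% and 20.2%. Both shares lay below the background, and the abundant genes were at 25.1% higher and 29.5% lower in M0 and at 24.9% and 37.1% in M2.

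Rpl3, a protein close to the peptidyl transferase centre, had the lowest adjusted p among canonical members in KO cells in both cell types. It had 518, 529 and 572 CPM in KO M0 control and 361, 374 and 382 CPM in KO M0 in CM. The same gene had 462, 487 and 460.0 CPM in KO M2 control and 315, 299.6 and 323 CPM in KO M2 in CM. The libraries in CM were the lower ones in both cell types, with log2 fold changes of -0.54 ± 0.06 (adjusted p = 1.65e-07) and -0.59 ± 0.06 (adjusted p = 2.89e-08). In WT M2 it fell by 0.24 on the same scale (adjusted p = 0.00724). Rpl10a, of the mobile L1 stalk, fell by 0.48 in KO M0 and in KO M2 (adjusted p = 0.000854 and 0.000781).

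Rpl24, which forms a bridge between the subunits, went the other way. It had 226, 225 and 209.8 CPM in KO M2 control and 328, 351 and 289 CPM in KO M2 in CM, without overlap (log2 fold change 0.55 ± 0.08, adjusted p = 3.55e-06), and rose in KO M0 by 0.24 ± 0.08 (adjusted p = 0.0196). Rps14, of the platform of the small subunit, rose in KO M0 by 0.38 ± 0.11 (adjusted p = 0.00690).

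The numbers of members called in KO cells depended on single libraries. The calls on Rpl3 and Rpl10a in both cell types, Rpl24 in KO M2 and Rps14 in KO M0 held with each compared library left out in turn. In KO M0, 2 rose and 5 fell without control replicate 1, 8 rose and 2 fell without CM replicate 1, 2 rose and 2 fell without CM replicate 2, and 2 rose and 3 fell without CM replicate 3. In KO M2, 2 rose and 5 fell without CM replicate 2, 16 rose and 5 fell without CM replicate 3, 10 rose and 2 fell without control replicate 2, and 5 rose and 5 fell without control replicate 3. Over all 27 libraries 1 canonical member fell in KO M0 and none passed in KO M2, where 19.4% and 6.05% of all genes passed. Rpl3 kept its call in KO M0 (adjusted p = 0.0262) and missed it in KO M2 (-0.30, adjusted p = 0.170), where the batch 2 libraries had 469.9 CPM (control) and 567 CPM (CM). Rpl24 missed it in both (adjusted p = 0.185 and 0.162). Scaling by library size alone gave 30 higher and 2 lower in KO M2, beside a median of all genes of 0.12, and TMM factors from genes other than members gave 6 higher and 2 lower in KO M0.

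**Figure D2:**
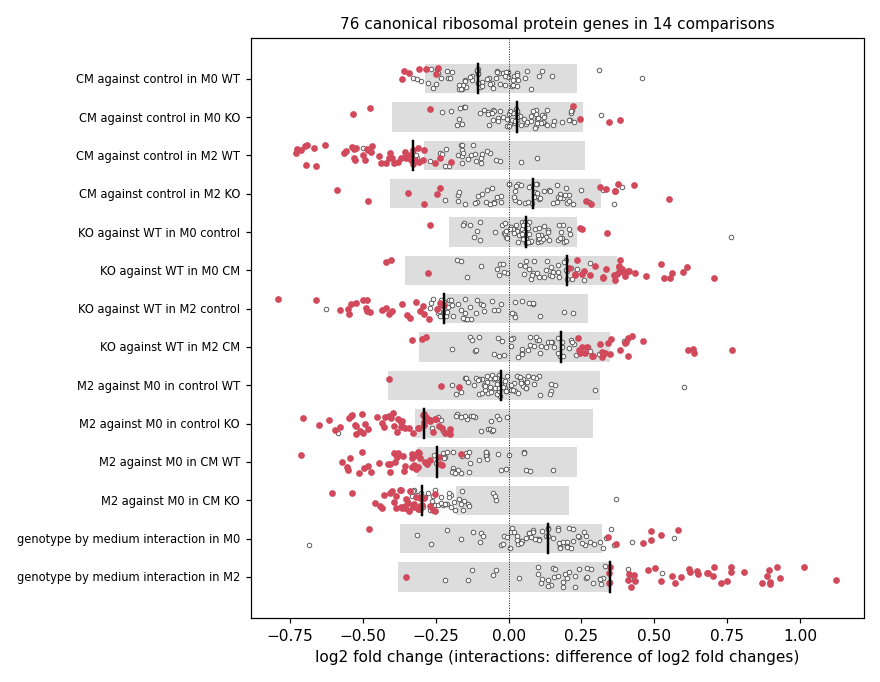
Log2 fold change of each of the 76 canonical members (points) in the 14 comparisons, in batch 1. Red points passed the adjusted threshold, open points did not, each black bar is the median of the members, and the grey band spans the middle of all genes tested (from the 25th to the 75th percentile). The median lies at -0.33 for CM in WT M2 and at 0.35 for the interaction in M2. With library size alone the median for KO against WT in M0 control turned from 0.06 to -0.05, and that of all genes from 0.03 to -0.08.

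The comparisons of genotype differed by medium. In M0 cells in control medium 3 canonical members were higher and 1 lower in KO (median 0.06), smaller shares than the 8.64% and 7.97% of all genes. In M2 cells in control medium 27 of 76 were lower in KO and none higher (median -0.22), whereas 7.87% of all genes were lower and 8.56% higher. In CM, 32 were higher and 3 lower in KO M0 (median 0.20, beside 19.1% higher and 19.2% lower among all genes), and 26 were higher and 3 lower in KO M2 (median 0.18, beside 17.2% and 16.8%). Of the abundant genes, 15.3% were lower in M2 control, and 30.3% and 26.4% were higher in CM in M0 and M2. In the share higher, the members in CM thus lay nearer to genes of like level than to all genes. In the share lower they lay farther from genes of like level, of which 22.6% and 25.2% were lower in CM in M0 and M2. Each of these comparisons shares a group of libraries with a comparison of media, so the same libraries enter both.

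Among the genes lower in KO M2 in control medium was Rpl15, a protein of the core of the large subunit. It had 51.98, 45.6 and 45.1 CPM in WT and 33.8, 22.1 and 26.8 CPM in KO, without overlap (log2 fold change -0.79 ± 0.22, adjusted p = 0.0140). Rpl41, a very short peptide, fell by 0.66 (SE 0.18, adjusted p = 0.0147) and Rps4x by 0.58 (SE 0.09, adjusted p = 5.55e-05). Rpl15 missed the threshold without WT M2 control replicate 2 or KO replicate 2 or 3 (adjusted p = 0.0604, 0.0769 and 0.0520), and Rpl41 without KO replicate 3 (adjusted p = 0.0583). Without KO M2 control replicate 3 the number of lower members was 13. Over all 27 libraries it was 8, with 8.34% of all genes called, and Rpl15 passed there (-0.81, adjusted p = 0.0130).

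Rps27 had the largest rise in KO cells in CM, in M0 and in M2, among canonical members with a mean of at least 10 CPM. In M0 it had 377, 322 and 355 CPM in WT and 539, 591 and 590.1 CPM in KO (log2 fold change 0.71 ± 0.08, adjusted p = 6.57e-08). In M2 it had 222, 263 and 263 CPM in WT and 411, 469 and 391 CPM in KO (0.77 ± 0.08, adjusted p = 2.14e-08). The genotypes did not overlap in either cell type. In M0 control it was higher in KO by 0.34 ± 0.08 (adjusted p = 0.00322), and in M2 control lower by a log2 fold change of -0.25 ± 0.08 (adjusted p = 0.0341).

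Rpl30 and Rpl23 rose in KO M0 by 0.61 ± 0.12 (adjusted p = 0.000280) and 0.60 ± 0.11 (adjusted p = 0.000114), and Rpl24 and Rps23 in KO M2 by 0.64 ± 0.08 (adjusted p = 5.22e-07) and 0.63 ± 0.12 (adjusted p = 0.000132). In M0 control Rps28 was higher in KO by 0.25 ± 0.07 (adjusted p = 0.0112) and Rpsa, the small-subunit protein also known as the laminin receptor, was lower by a log2 fold change of -0.27 ± 0.08 (adjusted p = 0.0170). Rps28 missed the threshold without KO replicate 3 (adjusted p = 0.103), and Rpsa without KO replicate 1 or WT replicate 2 or 3 (adjusted p = 0.113, 0.0662 and 0.1001).

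In M0 in CM no single library moved the number of higher members by more than 1.5 times (24 to 36). In M2 in CM, 12 were higher and 7 lower without WT CM replicate 1, and 13 were higher and 3 lower without KO CM replicate 2. In M0 control, 6 were higher and none lower without KO replicate 1, 3 were higher and none lower without WT replicate 2 or without WT replicate 3, and 1 was higher and 1 lower without KO replicate 3. Over all 27 libraries 14 members were higher and 1 lower in M0 in CM, where 22.7% of all genes were called, and 7 were higher and none lower in M2 in CM, where 12.3% were. With library size alone none were higher and 3 lower in M0 control (median -0.05), beside a median of all genes of -0.08. With TMM factors from genes other than members 1 was higher and 1 lower there.

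The response to CM itself differed between genotypes in M2 cells. The test of the difference between the response in KO and that in WT passed for 37 of 76 canonical members in M2, of which 36 had the higher response in KO (median difference 0.35 on the log2 scale). The background for this test was 9.36% of all genes with a higher and 10.8% with a lower response in KO (18.2% and 18.9% of the abundant genes). The difference was 1.01 ± 0.11 for Rps27 (adjusted p = 1.63e-07), 0.93 ± 0.11 for Rpl24 (adjusted p = 6.75e-07) and 0.76 ± 0.17 for Rps15 (adjusted p = 0.00142). The exception was Rpl3, at -0.35 ± 0.09 (adjusted p = 0.00609). In WT 46 members had fallen in CM, and in KO 9 had risen and 6 fallen. The test uses the 4 groups of M2 libraries that the comparisons above also use.

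In M0 the test passed for 7 members with a higher response in KO and 1 with a lower one (median difference 0.14), which lies near the 8.17% and under the 11.5% of all genes (17.1% and 21.5% of the abundant genes). Rpl3 was again the member with the lower response (-0.48 ± 0.09, adjusted p = 0.000276). WT M2 CM replicate 1 has no WT M2 control library of its number. Without that CM library the number of members with a higher response in M2 was 22, and without KO M2 control replicate 3 the number was 21. In M0 it was 3 without KO control replicate 1 or WT control replicate 2, 2 without KO CM replicate 2, and 4 without WT control replicate 3, KO control replicate 3 or KO CM replicate 3. With 27 libraries 6 members passed in M2, all with the higher response in KO, and none in M0, where 1.32% and 4.80% of all genes were called.

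**Figure D3:**
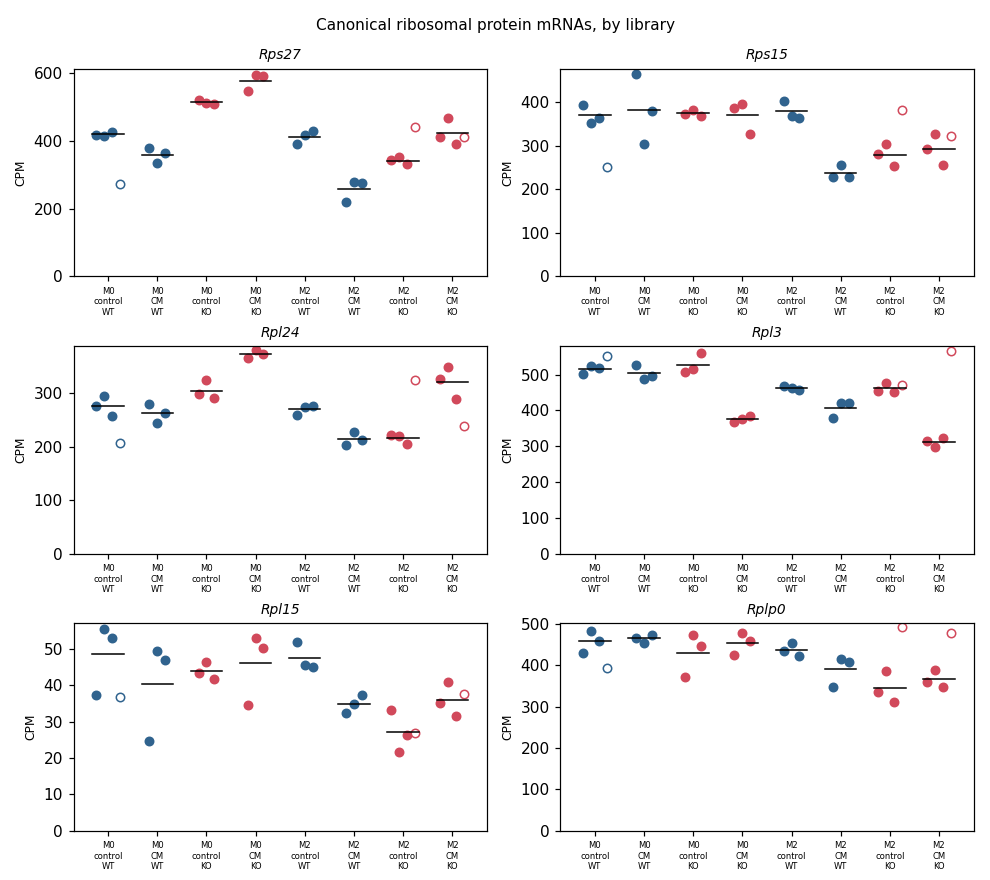
CPM in each of 27 libraries for 6 canonical genes, by group. Filled points are batch 1, open points batch 2, blue WT, red KO, and bars are batch 1 means. Rps27 is lowest in WT M2 in CM (222 to 263 CPM on the scale of batch 1), Rpl3 has its lowest batch 1 means in the KO groups in CM but 567 CPM in the open point of KO M2 in CM, and Rplp0 spans 317 to 486 CPM in batch 1 on that batch's scale.

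Ribosomal protein mRNAs were lower in M2 than in M0 cells in 3 of the 4 settings. M2 cells had 51 of 76 canonical members lower than M0 in KO control (median -0.29), 40 in WT in CM (median -0.24) and 35 in KO in CM (median -0.30), and none higher in any. Among all genes, 12.9%, 13% and 4.47% were lower and 15.6%, 11.9% and 6.71% higher. In WT control 3 were lower and none higher (median -0.03), against 18.1% lower and 19.1% higher among all genes. Of the abundant genes 15.8%, 17.8% and 7.98% were lower in the first 3 settings and 15.5% in WT control, where 46.6% were higher.

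In KO control medium, Rps16, a small-subunit protein, had 215, 228 and 209.7 CPM in M0 and 143, 137 and 135 CPM in M2, without overlap (log2 fold change -0.65 ± 0.09, adjusted p = 3.05e-06). Rpl15 fell by 0.71 there (SE 0.21, adjusted p = 0.0164) and Rps4x by 0.61 (SE 0.09, adjusted p = 7.01e-06). In WT in CM, Rps15 had 462, 292 and 370.3 CPM in M0 and 229, 243 and 216 CPM in M2 (-0.71 ± 0.12, adjusted p = 4.79e-05). Its M0 libraries varied widely but all lay above M2, and Rplp2 (-0.57 ± 0.13, adjusted p = 0.00142) fell as well. Rpl15 missed the threshold in KO control without KO M0 control replicate 2 or KO M2 control replicate 2 or 3 (adjusted p = 0.0551, 0.108 and 0.0636).

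In KO in CM, Rps16 (-0.54 ± 0.09, adjusted p = 0.000148) and Rps19 (-0.46 ± 0.09, adjusted p = 0.00131) were among the members that fell, the latter a gene mutated in Diamond-Blackfan anemia. In WT control 3 members were lower, among them Rps20 and Rps9 of the small subunit. Rps20 had 1149.8, 1361 and 1421 CPM in M0 and 983, 1013 and 961 CPM in M2 (-0.41 ± 0.10, adjusted p = 0.00142), while Rps9 fell by 0.23 (SE 0.07, adjusted p = 0.0113). Rps9 missed the threshold without WT M0 control replicate 3 (adjusted p = 0.0681).

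The result in WT control depended on the scaling. Although M2 libraries there had a smaller share of counts on members than M0 libraries (4.06% to 4.15% against 4.78% to 5.22%), the TMM factors left the median near 0. With library size alone 53 canonical members were lower (median -0.30), but the median of all genes was then -0.31. Library size alone also gave all-gene medians of -0.21 in KO control, where 73 members were lower, and -0.17 in WT in CM, where 58 were. In KO in CM it gave 54 lower members, beside a median of all genes of -0.05. Without WT M0 control replicate 3, 1 member was lower in WT control. Without KO M0 control replicate 2 or KO M2 control replicate 3, 33 and 25 were lower in KO control. In WT in CM, 23 were lower without WT M2 CM replicate 1. In KO in CM, 19 were lower without KO M2 CM replicate 1 or replicate 3, and 18 without KO M0 CM replicate 2. The 27 libraries gave 0, 13, 5 and 2 lower members in WT control, KO control, WT in CM and KO in CM, and none higher, where 27%, 16.3%, 8.84% and 3.49% of all genes were called.

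Canonical members had similar profiles over the 8 groups. The mean was highest in KO M0 in CM for 42 of 76, followed by KO M0 control for 18, and lowest in WT M2 in CM for 49, followed by KO M2 control for 13. The ratio of the highest to the lowest group mean had a median of 1.48 and ranged from 1.08 (Rpl14) to 2.30 (Rps27). The numbers of reads, which do not rank levels between genes, included low means of 40.3 (Rpl15) and 40.7 CPM (Rpl7a) and high means of 1632 (Rpl37), 1972 (Rps24) and 2311 CPM (Rplp1). As a description over 8 group means that share libraries, the correlation of a member with the median profile of the canonical members had a median of 0.84, and 50 members exceeded 0.8. Rpl3 (0.30) and Rpl13 (0.31) had low correlations. Among paralogs the correlation lay between 0.10 (Rps27l) and 0.34 (Rpl36al), except 0.77 for Rpl32l.

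The P-stalk recruits the translation factors that hydrolyse GTP, and it is formed by Rplp0, Rplp1 and Rplp2. Rplp0, which served as the reference gene of the study's RT-qPCR, had 427, 481 and 456 CPM in WT M0 control, 464, 438 and 459.6 in WT M0 in CM, 380.2, 486 and 455 in KO M0 control, and 418, 473 and 456 in KO M0 in CM. In M2 it had 437, 453 and 423 CPM in WT control, 349, 393 and 386 in WT in CM, 341, 393 and 317 in KO control, and 361, 390.5 and 349 in KO in CM. M0 groups overlapped with each other, and WT M2 in control medium lay above the other M2 groups.

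Rplp0 did not pass for CM in any cell type and genotype (the lowest adjusted p was 0.0780 in WT M2, with a log2 fold change of -0.22), although its WT M2 libraries did not overlap between media. It was lower in KO than in WT in M2 control (-0.32 ± 0.09, adjusted p = 0.0136), and lower in M2 than in M0 in KO control, WT in CM and KO in CM (-0.33, -0.27 and -0.29, with adjusted p = 0.00585, 0.0258 and 0.0317). None of these 4 passed over all 27 libraries (adjusted p = 0.365, 0.411, 0.3003 and 0.473). Single libraries also ended these calls. That of genotype was lost without WT M2 control replicate 3 or KO M2 control replicate 3 (adjusted p = 0.0516 and 0.0820), and that in KO control without KO M0 control replicate 2 or KO M2 control replicate 3 (0.0594 and 0.0730). That in WT in CM was lost without WT M0 CM replicate 1 or 3 or WT M2 CM replicate 1 (0.0695, 0.0694 and 0.170), and that in KO in CM without KO M2 CM replicate 1 or 3 or KO M0 CM replicate 2 or 3 (0.112, 0.141, 0.146 and 0.0977). Rplp1 passed in none of the 14 comparisons. Rplp2 fell in CM in WT M2 (-0.53 ± 0.13, adjusted p = 0.00276).

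The 4 members on the X chromosome, Rpl10, Rpl36a, Rpl39 and Rps4x, were examined beside Xist, which was at most 1.14 CPM in the KO libraries of batch 1. In CM all 4 fell in WT M2, Rpl36a and Rpl39 fell in WT M0, and none passed in KO. In CM Rpl10, Rpl36a and Rpl39 were higher in KO M0 than in WT M0, and Rpl10 and Rps4x were higher in KO M2 than in WT M2. In M2 control Rps4x and Rpl36a were lower in KO, and in M0 control none passed. The 76 canonical members, these 4 included, had 46 lower and none higher in CM in WT M2. In WT M0 7 were lower in CM and none higher. In KO against WT, 32 were higher and 3 lower in M0 in CM, and 26 and 3 in M2 in CM. In M2 control 27 were lower in KO and none higher. The calls on the 4 X-linked members thus had the direction of most calls on canonical members. Rpl39 in WT M2 missed the threshold without any of 5 of its 6 libraries (adjusted p = 0.0582 to 0.220), and Rpl36a there without CM replicate 1 or control replicate 2 (0.0824 and 0.0676) and in WT M0 without control replicate 2 or 3 (0.0582 and 0.0608). For KO against WT, Rpl36a missed it in M2 control without any of 5 of 6 libraries (0.0544 to 0.207), Rps4x in M2 in CM without WT replicate 1 or KO replicate 2 (0.0836 and 0.0866), and Rpl39 in M0 in CM without WT replicate 1 or KO replicate 3 (0.0866 and 0.0622). With 27 libraries none of these calls on Rpl36a and Rpl39 passed, nor that on Rps4x in M2 in CM, while the calls on Rpl10 and the other calls on Rps4x held. Rps4x had 229, 245 and 269.8 CPM in WT M2 control and 149, 154 and 154 CPM in CM. In KO M2 it had 174, 169.7 and 154 CPM in control medium and 188, 214 and 169 CPM in CM. The fall in WT was -0.70 ± 0.09 (adjusted p = 1.52e-06), and the responses differed between genotypes by 0.90 ± 0.13 (adjusted p = 8.75e-06). The part of the X chromosome's state in these values was not tested.

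Among genes of the ribosome outside the naming rule are Fau, which encodes a ubiquitin-like domain fused to a small-subunit protein, and Rack1, a scaffold on the small subunit. Fau had 424, 387 and 444 CPM in WT M2 control and 357, 294 and 268 CPM in CM, and in KO M2 371, 368 and 354 CPM in control medium and 500.1, 514 and 458 CPM in CM. It fell in WT (-0.45 ± 0.11, adjusted p = 0.00250) and rose in KO (0.43 ± 0.11, adjusted p = 0.00224), and the difference of the responses was 0.88 ± 0.15 (adjusted p = 9.53e-05). Rack1 fell in WT M2 (-0.22 ± 0.08, adjusted p = 0.0438). In KO M2 it did not pass (-0.14, adjusted p = 0.183), nor did the difference of its responses (0.08, adjusted p = 0.691).

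Paralogs are described apart from the canonical members. Of 8 paralogs (1 gene is 12.5%), the numbers higher and lower in CM were 1 and 0 in WT M0, 2 and 1 in KO M0, 0 and 2 in WT M2, and 2 and 0 in KO M2, where 11.2% to 16.7% of all genes were higher and 9.96% to 20.2% lower. In KO against WT they were 2 and 0 in M0 control, 3 and 1 in M0 in CM, 1 and 1 in M2 control, and 2 and 0 in M2 in CM, beside 8.56% to 19.1% and 7.87% to 19.2% of all genes. M2 cells had 1, 2, 1 and 0 lower than M0 in WT control, KO control, WT in CM and KO in CM, and none higher, beside 4.47% to 18.1% lower among all genes. Most of these counts lie near the background. Rps27l, a stress-responsive paralog of Rps27, and Rpl6l and Rpl32l passed in no comparison of batch 1.

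Rpl39l, a retrocopy of Rpl39 best known from testis, was near the limit of detection in WT and higher in KO cells. In WT it had 0.245, 0 and 0.114 CPM in M0 control, 0.232, 0 and 0.323 in M0 in CM, 0.451, 0.259 and 0.842 in M2 control, and 0.126, 0 and 0 in M2 in CM. In KO it had 1.13, 1.83 and 1.58 CPM in M0 control, 1.87, 0.851 and 2.67 in M0 in CM, 3.30, 3.21 and 3.59 in M2 control, and 3.44, 1.47 and 2.02 in M2 in CM. The genotypes of batch 1 did not overlap in any setting. No WT library of batch 1 exceeded 0.842 CPM, so Rpl39l met the rule of a mean of at least 1 CPM only through the KO libraries. That rule favours a paralog that is higher in KO, so its comparisons of genotype, here and below, describe levels and are no independent evidence.

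The counts behind these levels were few. Summed over the 3 libraries of a group, KO and WT had 35 and 3 counts in M0 control, 43 and 5 in M0 in CM, 72 and 11 in M2 control, and 55 and 1 in M2 in CM. The ratios of KO to WT per scaled library were 12.4 (exact 95% interval 3.89 to 62.8), 9.49 (3.77 to 30.7), 6.58 (3.47 to 13.8) and 54.5 (9.39 to 2192), where the intervals cover counting error only. edgeR's adjusted p-values were 0.00122, 0.000365, 0.000879 and 1.18e-05. In WT M2 the gene was lower in CM than in control medium, with 1 and 11 counts (ratio 0.0811, interval 0.00188 to 0.558, adjusted p = 0.0308). That call was lost without WT M2 control replicate 2 or 4 or CM replicate 2 or 3 (adjusted p = 0.0532, 0.157, 0.103 and 0.103).

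The KO libraries of batch 2 did not share this level of Rpl39l. It had 2 counts (0.191 CPM) in the library labelled KO M2 control and 1 count (0.104 CPM) in that labelled KO M2 in CM, and 0 in the WT M0 control library of that batch. Neither reached the 3 counts taken as detectable, and they are also the 2 KO libraries with Xist at 404 and 308 CPM. Over all 27 libraries the adjusted p-values were 0.0268, 0.0291, 0.103 and 0.0142 in the order above, so that the call in M2 control was lost. Rpl39l lies on chromosome 16 within 10 Mb of Trap1 (RefSeq, GRCm38). Of 76 tested genes within that distance, 7 were higher and 5 lower in KO in M0 control, 11 and 12 in M0 in CM, 10 and 7 in M2 control, and 13 and 13 in M2 in CM. Of all genes, 8.64% and 7.97%, 19.1% and 19.2%, 8.56% and 7.87%, and 17.2% and 16.8% were higher and lower, in that order. Most of the neighbour counts lie near this background, and the part of these genes in the result for Rpl39l was not tested. Canonical Rpl39 did not pass for genotype in control medium (M0 -0.10, adjusted p = 0.658, and M2 -0.27, adjusted p = 0.0920) or in M2 in CM (0.23, adjusted p = 0.106), and was higher in KO in M0 in CM (0.37, adjusted p = 0.00925), a call lost without WT M0 CM replicate 1 or KO M0 CM replicate 3 (adjusted p = 0.0866 and 0.0622).

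Rps4l, annotated in RefSeq as a transcribed pseudogene of Rps4x, was higher in KO in 3 of the 4 settings. It had 1.47, 2.08 and 2.28 CPM in WT M0 control and 4.50, 4.06 and 4.08 CPM in KO, and in M2 in CM 0.880, 1.95 and 1.51 CPM in WT and 6.22, 4.52 and 5.19 CPM in KO. The genotypes did not overlap in either. The log2 fold change was 1.11 ± 0.28 in M0 control (adjusted p = 0.00573), 0.73 ± 0.26 in M0 in CM (adjusted p = 0.0308) and 1.86 ± 0.29 in M2 in CM (adjusted p = 1.07e-05), and it did not pass in M2 control (0.49, adjusted p = 0.228). With 27 libraries it passed in M2 in CM (1.98, adjusted p = 0.000268) and not in M0 (adjusted p = 0.140 in control medium and 0.102 in CM). CM lowered it in WT M2 (-1.11 ± 0.31, adjusted p = 0.00806), and the responses differed between genotypes in M2 (1.36 ± 0.40, adjusted p = 0.0149). With 27 libraries neither passed (adjusted p = 0.0612 and 0.0901). Both were lost without WT M2 CM replicate 1 (adjusted p = 0.0918 and 0.0743) or WT M2 control replicate 3 (0.101 and 0.0823). The call in M0 in CM was lost without WT replicate 1 or 2 or KO replicate 1 or 3 (0.101, 0.114, 0.0691 and 0.0912).

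Rpl22l1, a paralog of Rpl22 that can take its place in the ribosome, fell in CM in KO M0. It had 149, 197 and 175 CPM in control medium and 72.8, 97.2 and 90.8 CPM in CM, without overlap (log2 fold change -0.997 ± 0.13, adjusted p = 3.34e-07), whereas WT M0 had 129, 161 and 165 CPM in control medium and 115, 154 and 146 CPM in CM. The response differed between genotypes in M0 by -0.86 ± 0.17 (adjusted p = 0.000590). With 27 libraries the fall in KO M0 passed (adjusted p = 0.00198) and the difference did not (adjusted p = 0.0747). Rpl22l1 was lower in M2 than in M0 in control medium, by 0.45 in WT and 0.56 in KO on the log2 scale (adjusted p = 0.00536 and 0.000976). Rpl22 itself did not pass in these comparisons (0.16, adjusted p = 0.181 for CM in KO M0).

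Rpl7l1, a nucleolar relative of Rpl7, rose in CM in WT M0 (0.26 ± 0.07, adjusted p = 0.00961), KO M0 (0.40 ± 0.07, adjusted p = 6.75e-05) and KO M2 (0.39 ± 0.07, adjusted p = 8.69e-05). In KO M0 it had 75.1, 78.3 and 79.3 CPM in control medium and 101, 106 and 101 CPM in CM. Rpl7 itself did not pass in these comparisons (-0.13, -0.06 and -0.08). Rpl36al, an intronless copy of Rpl36a, had 51.2, 52.8 and 52.3 CPM in KO M2 control and 81.1, 77.3 and 68.2 CPM in CM. It rose there (0.54 ± 0.14, adjusted p = 0.00327) and in KO M0 (0.44 ± 0.14, adjusted p = 0.0144), and was higher in KO than in WT in M0 in CM (0.57 ± 0.14, adjusted p = 0.00165). Rpl36al missed the threshold in KO M0 without control replicate 1 or CM replicate 2 (adjusted p = 0.124 and 0.0886). With 27 libraries Rpl7l1 kept its call in KO M0 (adjusted p = 0.00950) and missed it in WT M0 and KO M2 (0.0933 and 0.199), and Rpl36al missed it in KO M0 and KO M2 (0.0899 and 0.477) and kept it in KO against WT (0.0495).

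**Figure D4:**
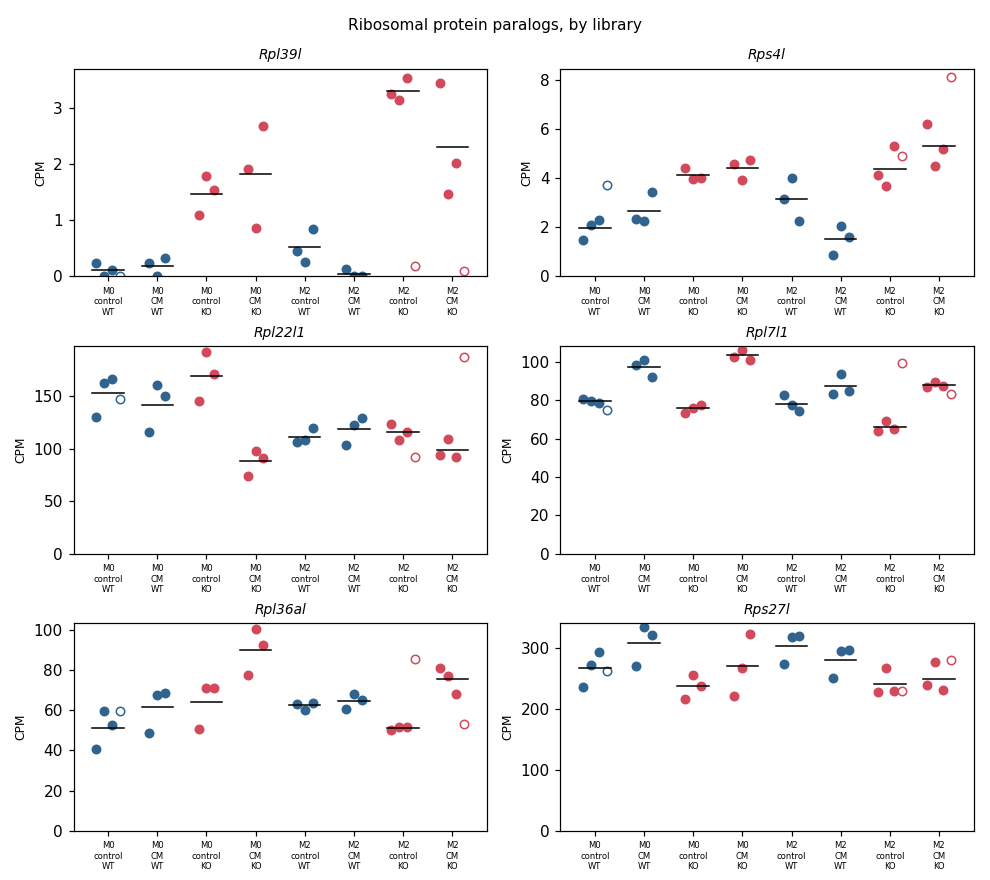
CPM in each of 27 libraries for 6 paralogs, by group. Filled points are batch 1, open points batch 2, blue WT, red KO, and bars are batch 1 means. On the scale of 27 libraries used here Rpl39l lies between 0.858 and 3.53 CPM in the 12 KO libraries of batch 1 while the batch 2 points of KO M2 lie at 0.191 CPM (control) and 0.104 CPM (CM).

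Genes that build the ribosome were set beside the proteins that compose it. Of 34 ribosome biogenesis genes (nucleolar proteins, snoRNP subunits and RNA polymerase I factors), 22 rose and none fell in CM in WT M0 (median 0.52), where 11.3% of all genes rose, led by Rrp9 (1.31 ± 0.24, adjusted p = 0.000254), of the U3 snoRNP, and Rrp12 (0.95 ± 0.21, adjusted p = 0.00163). In WT M2, where the canonical members fell, 3 fell and none rose (median -0.04), under the 13.3% of all genes that fell. In KO cells 5 rose and 3 fell in M0 (14.8% and 18.1% of all genes) and 1 rose and 14 fell in M2 (16.7% and 20.2%), with Dkc1, the pseudouridine synthase of snoRNPs, at -0.97 ± 0.11 in M2 (adjusted p = 9.18e-08).

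In KO against WT in M0 in CM 26 biogenesis genes were lower and none higher (median -0.70), and in M2 in CM 20 were lower and none higher (median -0.50), while 32 and 26 canonical members were higher. Of all genes 19.2% and 16.8% were lower there. Dkc1 was lower by a log2 fold change of -1.83 ± 0.11 in M0 (adjusted p = 5.96e-13) and -1.72 ± 0.11 in M2 (adjusted p = 2.60e-12). In control medium 6 of 34 were lower in M0 and 14 in M2, and none higher (7.97% and 7.87% of all genes were lower). In M2 against M0, 19 rose in WT control and 13 in KO control (19.1% and 15.6% of all genes), 4 fell in WT in CM (13%), and none passed in KO in CM.

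The other TOP mRNAs were 14 genes of translation factors and related proteins. In CM in WT M2 6 fell and none rose (median -0.24, with 13.3% of all genes lower), with Eef2 at -0.35 ± 0.08 (adjusted p = 0.00172). In KO against WT in CM 7 were higher and 3 lower in both M0 and M2 (medians 0.22 and 0.19, beside 19.1% higher and 19.2% lower among all genes in M0 and 17.2% and 16.8% in M2), with Tpt1 higher by 0.74 ± 0.10 in M0 (adjusted p = 7.70e-07) and 0.80 ± 0.10 in M2 (adjusted p = 2.81e-07), and the nucleosome assembly gene Nap1l1 lower by log2 fold changes of -1.38 and -0.89.

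Ddit4, an inhibitor of mTOR, rose in CM in WT M0 (1.15 ± 0.16), KO M0 (3.78 ± 0.16), WT M2 (2.81 ± 0.17) and KO M2 (3.90 ± 0.17). Eif4ebp1, a repressor of translation that mTOR inactivates, was higher in KO than in WT in CM by 1.01 ± 0.11 in M0 and 1.20 ± 0.11 in M2 (adjusted p = 1.73e-08 and 1.56e-09). Myc, which drives ribosome biogenesis genes, was lower in KO in M2 control and in M2 in CM (-1.69 ± 0.41 and -1.96 ± 0.43, adjusted p = 0.00720 and 0.00143). Over all 14 growth control genes tested, 3 were higher and 1 lower in CM in WT M0, 2 and 2 in KO M0, 2 and 2 in WT M2, and 3 and 1 in KO M2. The shares of all genes higher and lower were 11.3% and 9.96%, 14.8% and 18.1%, 11.2% and 13.3%, and 16.7% and 20.2%, so that these counts lie near the background. They cover CM against control only, so the values of Eif4ebp1 and Myc for genotype do not stand for the list.

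All 14 proliferation genes were lower in KO than in WT in CM, in M0 (median -3.40) and in M2 (median -2.16), with Rrm2 at -4.00 ± 0.18 and -2.56 ± 0.17. In CM against control 14 fell in KO M0 and 14 in KO M2, while 7 rose and 1 fell in WT M0 and 12 rose and none fell in WT M2 (shares of all genes as given for the growth control genes). The summed level of the 14 genes was 273 to 287 CPM in KO M0 in CM and 2306 to 2607 in WT M0 in CM, and 383 to 409 CPM in KO M2 in CM and 1382 to 1486 in WT M2 in CM. The part of the proliferation state in the levels of ribosomal protein mRNAs was not tested. Free ribosomal proteins can bind MDM2, the inhibitor of p53. Of 10 p53 targets 3 fell in CM in WT M0, 4 in WT M2 and 3 in KO M2 with none higher, and 2 rose and 3 fell in KO M0, beside the same shares of all genes.

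**Figure D5:**
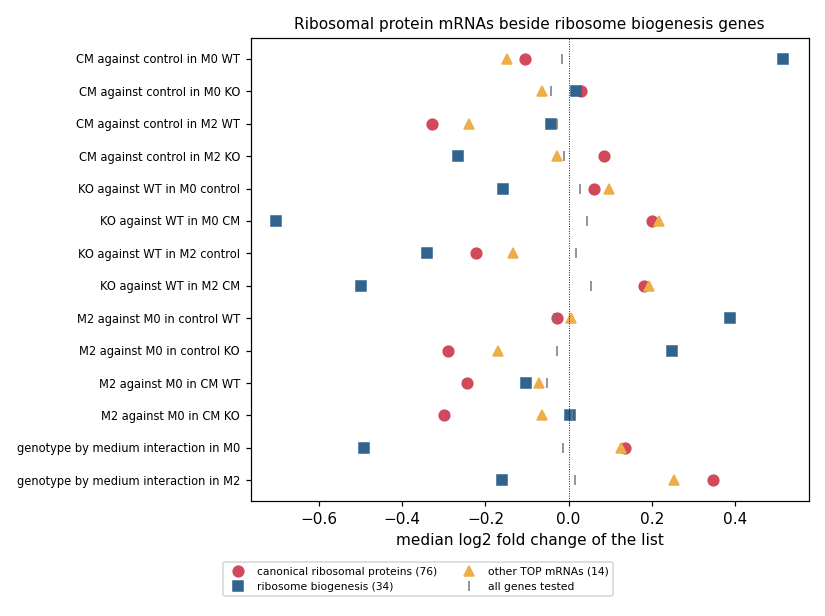
Median log2 fold change (horizontal axis) of 76 canonical members (circles), 34 ribosome biogenesis genes (squares), 14 other TOP mRNAs (triangles) and all genes tested (bars) in the 14 comparisons of batch 1. For KO against WT in CM the circles lie at 0.20 and 0.18 and the squares at -0.70 and -0.50.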

How the data were processed

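Total RNA of the macrophages was sequenced from QuantSeq 3′ libraries, in which a read marks the 3′ end of a transcript, so levels were compared between libraries and not between genes. According to the study's notes, the authors trimmed reads (Trimmomatic, FastQC), aligned them with HISAT2 (to mm39 by these notes and to mm10 by the published methods), filtered alignments on mapping quality with SAMtools, counted genes with featureCounts and deposited the raw counts per gene, and they used DESeq for their own tests (DESeq2 is named in the published methods). Ribosomal protein genes have many near-identical processed pseudogenes, and reads that map to several places were removed by the filter, so low counts on a gene such as Rpl28 may reflect the counting. Of 32 columns of counts, 5 matched no sample described here and were not used.

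Counts of the 24 libraries of batch 1 (7037684 to 9089792 counts each) were analysed with edgeR 4.0.16 in R 4.3.3, with a filter on low counts by group, TMM factors, 1 mean per group and robust quasi-likelihood tests, and p-values were adjusted over 13614 genes (limma 3.58.1 was loaded by edgeR). There were 12 comparisons of 2 groups and 2 interactions. Values of CPM were computed from these counts and the TMM factors. Alternatives were all 27 libraries, batch as a covariate, the replicate number as a block, size factors by median of ratios, TMM factors without the members, library size alone, DESeq2 1.42.0, no filter on low counts, pseudogene counts added to their parents, the compared groups alone, a minimum absolute log2 fold change of 0.5 and each library left out. The canonical genes named in each comparison were the 3 called members with the largest change among those whose groups did not overlap and whose higher group averaged 10 CPM or more. Paralogs, the P-stalk, X-linked members, Fau, Rack1, Trap1, Xist and the extremes of level and spread were named beside them, and other genes after their values were seen. Some genes that this rule selects are not reported here. For the other lists up to 2 called genes were named. The members and lists were chosen with earlier results of these data known. The edgeR step was tested on simulated data with known changes. Ratios of summed counts have exact binomial intervals. Sequences and gene neighbours came from RefSeq on GRCm38, and no coordinates were converted.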

Additional observations from a re-analysis of the deposited data

Results flagged for a closer look

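In groups of 4 libraries, 30 sets of values (the 8 paralogs, Rplp0 and the share of counts in 3 groups) were examined and 5 held a library far from the others, where chance gives about 1 in 20. In KO M2 control, replicate 4 had 99.7 CPM of Rpl7l1 (64.1 to 69.0 in the others), 85.6 CPM of Rpl36al (50.3 to 51.7) and 0.191 CPM of Rpl39l (3.15 to 3.53), on the scale of 27 libraries. This is the library whose counts across genes were closest to KO M0 in CM. In the same group replicate 2 had 267 CPM of Rps27l (228 to 229 in the others), and in KO M2 in CM replicate 1 had 7.53 CPM of Rpl32l (9.34 to 9.66).

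The response to CM differed between genotypes for 37 of 76 canonical members in M2 and for 8 in M0. Among paralogs, it differed for Rps4l in M2 (1.36 on the log2 scale), and for Rpl22l1 in M0 (-0.86). It differed for Rpl7l1 in M2 by 0.29 (adjusted p = 0.0499), a call lost without any of 11 of the 12 libraries (adjusted p = 0.0712 to 0.247) and over 27 libraries (0.06, adjusted p = 0.906).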

How the results depend on the processing

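Members called of 84 are given in the order CM in WT M0, KO M0, WT M2 and KO M2, KO in M0 control, M0 in CM, M2 control and M2 in CM, M2 against M0 in WT control, KO control, WT in CM and KO in CM, and the interaction in M0 and M2. They were 8, 10, 48, 17, 6, 39, 29, 31, 4, 53, 41, 35, 9 and 39. With 27 libraries they were 0, 3, 16, 0, 2, 18, 8, 9, 0, 14, 5, 2, 0 and 6, and with batch as a covariate 1, 3, 18, 0, 2, 20, 10, 9, 0, 13, 7, 6, 1 and 9. A minimum log2 fold change of 0.5 left 0, 2, 18, 3, 2, 11, 8, 6, 0, 15, 8, 2 and 3 in the first 13. Library size alone gave 27 in WT M2, 34 in KO M2, 57 for M2 against M0 in WT control and 55 in KO in CM. TMM factors without members gave 4 in WT M0, and no filter 27 for M2 against M0 in WT in CM. The compared groups alone gave 3 in WT M0, 3 for KO in M0 control, 24 in M0 in CM, 44 in M2 control and 9 for M2 against M0 in WT in CM. The cause of these changes was not tested. Factors by median of ratios, DESeq2 and added pseudogene counts moved none of the 14 by more than 1.5 times. Leaving out 1 library gave 2 to 12, 6 to 13, 25 to 44, 9 to 23, 4 to 9, 31 to 42, 14 to 38, 18 to 33, 2 to 5, 26 to 59, 23 to 36, 18 to 46, 4 to 11 and 23 to 39. Of 93 calls on named genes none turned direction under any setting, and 33 held with 27 libraries. Under the replicate block they were 16 in WT M0, 53 for M2 against M0 in KO in CM and 14 for the interaction in M0, and 11 of 14 moved by less than 1.5 times. Same-numbered libraries had a mean correlation of 0.116 (77 pairs, 36 over 0.1), against -0.0483 for other pairs (175 pairs, 33 over 0.1). Of 24 libraries, 14 correlated best with their own number. The numbers may thus pair libraries, and the main fit, which has no term for them, leaves this out. Depth limits Rpl39l, which had 0 to 26 counts per library.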
